A study of Arabidopsis thaliana with 18 samples.

Results

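The WRKY family of Arabidopsis thaliana was compared between the pold2 mutant and wild type (WT) in whole seedlings. The list of 56 WRKY genes was matched by identifier to the authors' deposited table of RNA-seq values. Of these, 50 had a row among the 19858 genes of that table, and 6 (WRKY8, WRKY13, WRKY19, WRKY41, WRKY55 and WRKY71) had none and were not analysed here. The RNA came from 3 pold2 libraries and 3 WT libraries, all of ecotype C24. The seedlings were 10 days old and untreated, and grew at 22°C on plates with sucrose, in light for 23 h a day. POLD2 encodes an accessory subunit of the replicative polymerase delta, and the labels do not name the mutant allele. The table holds 1 pooled FPKM value per genotype (fragments scaled by transcript length and by library total), with the authors' log2 ratio of pold2 over WT, p and q. Histone marks come from the peak lists of 1 WT library each for H3K27me3, H3K4me3 and H3K9me2.

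WRKY proteins are plant transcription factors named after a conserved run of amino acids in their DNA-binding domain, which also holds a zinc finger and recognises the W-box in promoters. Group I proteins carry a pair of these domains, group II proteins carry a single domain and are split into IIa to IIe, and group III proteins have a different zinc finger. Many members answer to pathogens and salicylate, several govern senescence, heat or phosphate responses, and some shape trichomes, cell walls or the root. H3K27me3 is the mark of Polycomb silencing, H3K4me3 is found at the start of transcribed genes, and H3K9me2 marks transposons.

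POLD2 (AT2G42120) was at 2.83 FPKM in pold2 and 7.21 FPKM in WT, 2.55-fold lower in the mutant (q = 0.00103 in the authors' deposited table). A gene is called higher or lower below where that table gives it a q under 0.05, adjusted over all 19858 genes. No value per library was used, so there is no SD, no overlap of groups to judge and no n beside a level. Read totals are unknown. Whether the 3 libraries of a genotype are separate cultures is not stated in the labels, so the spread behind the authors' q may be technical.

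Marker lists were read in the same table. The 4 leaf markers summed to 31620 FPKM in pold2 and 36288 FPKM in WT, and 2 of them, LHCB1.1 and PSAD1, were called lower. The 6 root markers summed to 148.7 FPKM in pold2 and 114.0 FPKM in WT, and 1, the iron transporter gene IRT1, was called higher, at 111.5 FPKM in pold2 and 77.3 FPKM in WT. The 6 flower markers summed to 226.1 FPKM in pold2 and 7.94 FPKM in WT, and 5 were called higher. Every gene of the table reaches at least 0.501 FPKM in 1 of the genotypes, and 5 of the flower markers, 4 of them called, did so only in pold2, which fixed their direction. The other, SEP3, was at 195.7 FPKM in pold2 and 6.79 FPKM in WT. No marker was listed at 0 in either genotype. In whole seedlings a change in the share of a cell type and a change in its RNA per cell cannot be told apart, and the part of these shifts in the WRKY values was not tested.

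Among the listed WRKY genes called rises in pold2 outnumbered called falls, by small amounts. By the authors' deposited table, 11 of the 50 were called higher, 1 lower and 38 neither. Among all 19858 genes 5.97% had a called rise and 6.47% a called fall. The ratio of pold2 to WT was above 1 in 37 of the 50, against 48.7% of all genes. The median log2 ratio was 0.15 over the 50 and -0.01 over all genes. The 11 called higher ranged from 1.29-fold to 1.91-fold (median 1.46-fold), so none reached 2-fold. At a q under 0.01 there were 5 higher and 0 lower, where 3.74% and 3.86% of all genes passed. With a minimum of 1.5-fold beside the q there were also 5 higher, against 2.89% of all genes, and WRKY22 was the 1 lower, against 1.67%. Among members with a mean of the genotypes of 5 FPKM or more, 6 were called higher and 0 lower, against 4.71% and 7.69% of all genes at that level.

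**Figure D1:**
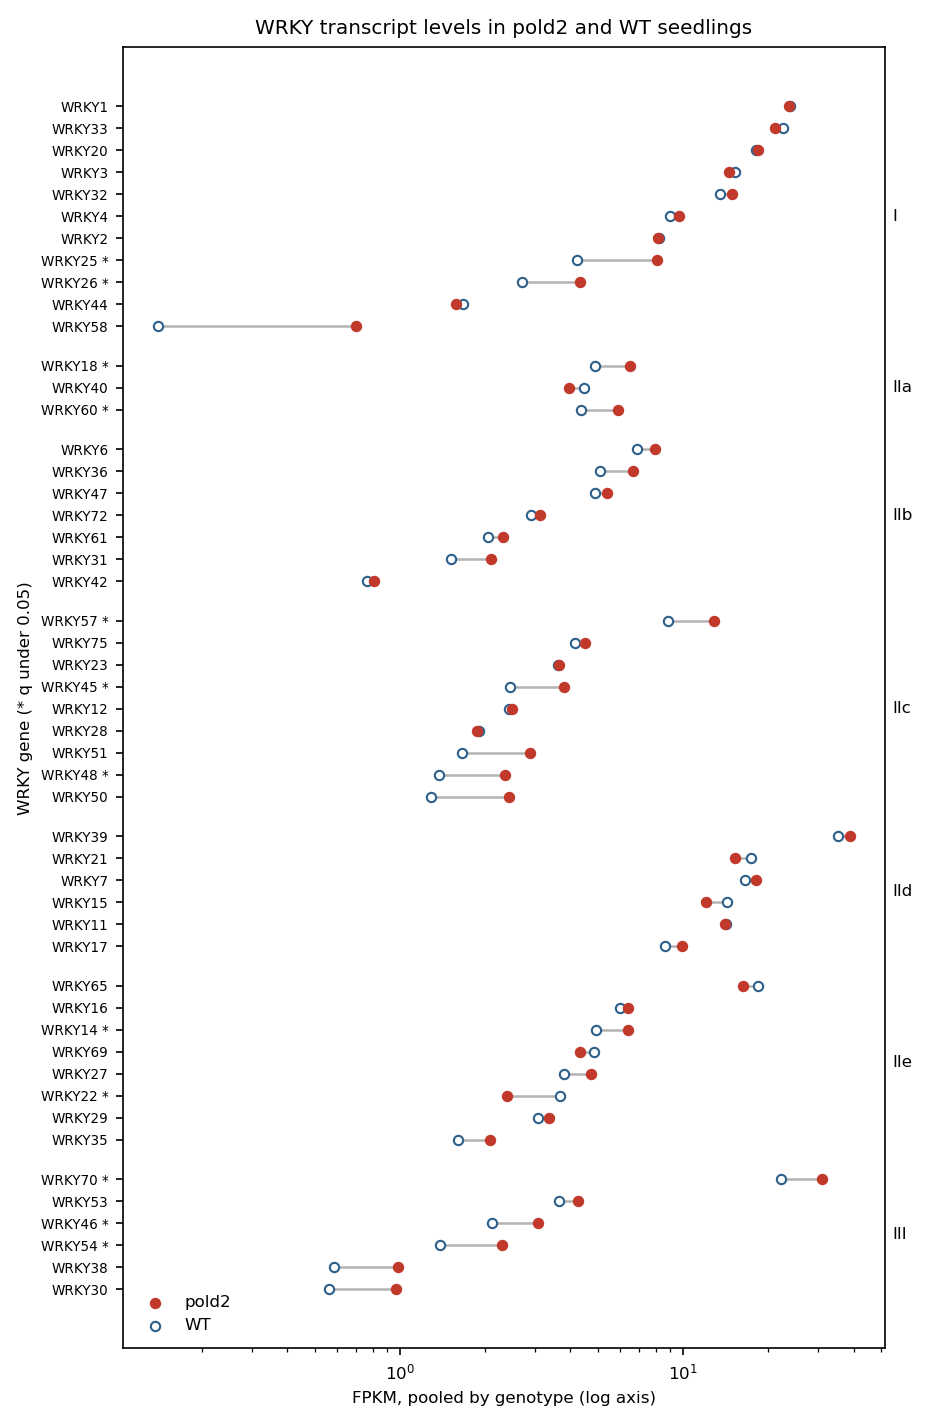
Transcript level of the 50 listed WRKY genes in FPKM (log axis), with pold2 as filled and WT as open circles, 1 pooled value per genotype joined by a line, in subgroups I to III named on the right and marked * where q is under 0.05. Most pairs lie close together, the 11 rises are at most 1.91-fold, and WRKY58 at the far left has the widest gap but was not called.

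Levels of the family covered a wide range, with the same gene at the top and the same gene at the bottom in both genotypes. WRKY39, a calmodulin-binding group IId protein linked to heat responses, had the highest level, at 38.8 FPKM in pold2 and 35.4 FPKM in WT. WRKY1 (ZAP1), a group I transcription activator, was at 23.7 FPKM in pold2 and 23.8 FPKM in WT. The locus of WRKY1 in the table is shared with other genes, so reads of overlapping transcripts may be mixed. WRKY33, which controls camalexin synthesis and resistance to necrotrophic fungi, was at 21.1 FPKM in pold2 and 22.6 FPKM in WT. None of these 3 was called in the authors' deposited table. WRKY70 stood second in pold2 and at rank 4 in WT. The median of the 50 was 4.62 FPKM in pold2 and 4.30 FPKM in WT, against 12.1 FPKM in both genotypes over all genes. Neighbours in this order cannot be separated, because no spread between libraries was used.

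WRKY58 (AT3G01080), which acts downstream of NPR1 as a brake on systemic resistance, had the lowest level, at 0.699 FPKM in pold2 and 0.140 FPKM in WT. WRKY58 was the 1 member that reached the table's minimum of 0.501 FPKM only in pold2. Its log2 ratio of 2.32 (q = 0.114 in the authors' deposited table) is therefore fixed in direction by that minimum.

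Rises were found in groups I, IIa, IIc, IIe and III. The background for each subgroup is the 5.97% of all genes called higher and 6.47% called lower, with 48.7% at a ratio above 1. In group I, WRKY25 and WRKY26, a pair of heat-induced genes that act with WRKY33 in heat tolerance, were called higher. WRKY25 (AT2G30250, chromosome 2, 12903236 to 12905198, TAIR10) was at 8.08 FPKM in pold2 and 4.23 FPKM in WT (log2 ratio 0.93, q = 0.00103 in the authors' deposited table), the highest fold of the called members. WRKY26 (AT5G07100, chromosome 5, 2204248 to 2205811) was at 4.32 FPKM in pold2 and 2.71 FPKM in WT (log2 ratio 0.68, q = 0.00335 in the authors' deposited table). Their relative WRKY33 had a log2 ratio of -0.10 (q = 0.671 in that table) and was not called. WRKY33 shares its locus in the table with another gene, so reads of overlapping transcripts may be mixed. Of the 11 listed group I genes, 9 were not called, and 8 of those lay between -0.10 and 0.15 in log2 ratio, WRKY58 being the exception. These 8 include WRKY2, needed for polarity of the zygote, WRKY3 and WRKY4, which act in defence against necrotrophs, and WRKY44 (TTG2), which acts in trichomes and the seed coat. The group I median was 0.02.

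The 3 group IIa proteins WRKY18, WRKY40 and WRKY60 bind one another and act together in defence and abscisic acid responses. WRKY18 (AT4G31800) was at 6.51 FPKM in pold2 and 4.88 FPKM in WT (log2 ratio 0.42, q = 0.0404 in the authors' deposited table). WRKY60 (AT2G25000) was at 5.90 FPKM in pold2 and 4.37 FPKM in WT (log2 ratio 0.43, q = 0.0483 in the authors' deposited table). WRKY40 was at 3.95 FPKM in pold2 and 4.47 FPKM in WT (log2 ratio -0.18, q = 0.747 in that table). Both called genes were near the threshold and neither passed a q of 0.01. WRKY40 also shares its locus with another gene.

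**Figure D2:**
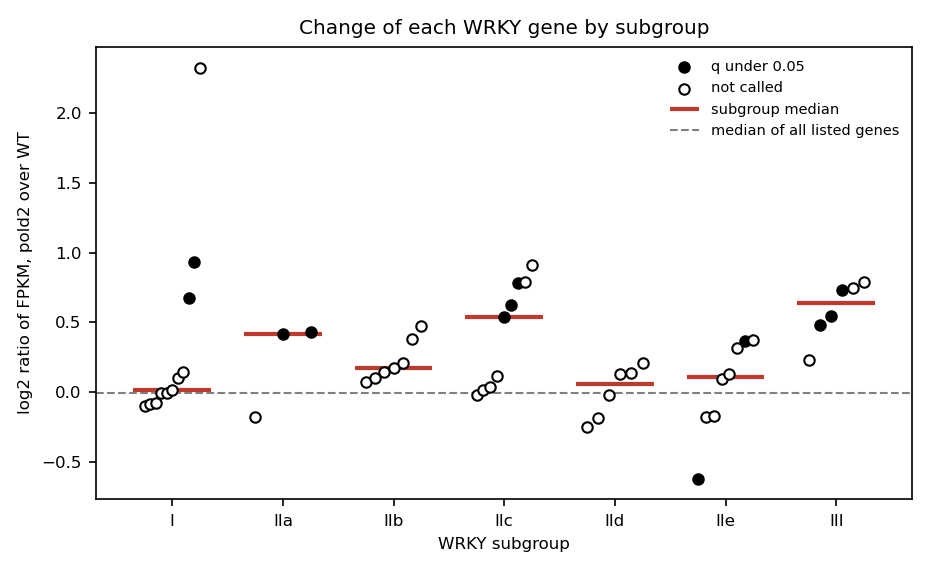
Log2 ratio of FPKM, pold2 over WT, of each listed WRKY gene by subgroup, filled where q is under 0.05, with the subgroup median as a red bar and the median of all 19858 genes (-0.01) as a dashed line. Groups III, IIc (with WRKY45) and IIa have medians of 0.64, 0.54 and 0.42, and those of groups I, IIb, IId and IIe lie between 0.02 and 0.18.

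Group III had the highest median, 0.64, with all 6 listed genes above 0 and 3 called higher. At a mean under 2 FPKM, where WRKY30, WRKY38 and WRKY54 lie, 64.9% of all genes were above 0 and 10.3% were called higher. WRKY70 (AT3G56400, chromosome 3, 20908928 to 20910481), which promotes salicylate responses at the expense of jasmonate responses, was at 30.9 FPKM in pold2 and 22.1 FPKM in WT (log2 ratio 0.48, q = 0.00103 in the authors' deposited table). Its close relative WRKY54 (AT2G40750), which with WRKY70 restrains leaf senescence, was at 2.30 FPKM in pold2 and 1.38 FPKM in WT (log2 ratio 0.73, q = 0.0138 in the authors' deposited table). WRKY46 (AT2G46400), which acts with WRKY53 and WRKY70 in basal resistance, was at 3.07 FPKM in pold2 and 2.11 FPKM in WT (log2 ratio 0.55, q = 0.0454 in the authors' deposited table). In these 3 genes both pooled values lay above 1 FPKM. WRKY53, a promoter of senescence, was at 4.27 FPKM in pold2 and 3.64 FPKM in WT and was not called (q = 0.857 in the authors' deposited table), and it shares its locus with another gene. WRKY38, a repressor of defence, and WRKY30 had log2 ratios of 0.75 and 0.79 and were not called, at levels under 1 FPKM in both genotypes. The group III median rests in part on these low genes, since it was 0.36 with a pseudocount of 1 and 0.52 without genes that averaged under 1 FPKM.

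Group IIc, which holds many regulators of nutrient, wall and hormone responses, had 3 of 9 listed genes called higher and a median of 0.54. The place of WRKY45 is disputed between group IIc and group I, and with it in group I the IIc median was 0.33 with 2 called higher. WRKY57 (AT1G69310), which raises drought tolerance and restrains jasmonate-induced senescence, was at 12.9 FPKM in pold2 and 8.85 FPKM in WT (log2 ratio 0.54, q = 0.00103 in the authors' deposited table). WRKY48 (AT5G49520), a repressor of basal defence, was at 2.36 FPKM in pold2 and 1.37 FPKM in WT (log2 ratio 0.78, q = 0.00335 in the authors' deposited table). WRKY45 (AT3G01970), an activator of phosphate uptake, was at 3.79 FPKM in pold2 and 2.46 FPKM in WT (log2 ratio 0.63, q = 0.0290 in the authors' deposited table). The 9 listed genes split into some near 0 and others above 0.5. Family genes outside the list were not placed in subgroups, so this split covers the listed genes only. WRKY50 and WRKY51, which mediate the repression of jasmonate signalling by salicylate, had log2 ratios of 0.91 and 0.79 but were not called (q = 0.204 and 0.0746 in the authors' deposited table). WRKY50 was at 2.43 FPKM in pold2 and 1.29 FPKM in WT, and WRKY51 at 2.87 FPKM in pold2 and 1.66 FPKM in WT. WRKY12, which limits wall thickening in the pith, WRKY23, an auxin-responsive gene, WRKY28, an activator of ICS1, and WRKY75, a phosphate and senescence regulator, lay between -0.02 and 0.11.

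Group IIe held the only called fall among the listed members. WRKY22 (AT4G01250, chromosome 4, 522604 to 524216), which acts downstream of the MAP kinase cascade set off by bacterial flagellin, was at 2.39 FPKM in pold2 and 3.67 FPKM in WT (1.53-fold lower, log2 ratio -0.62, q = 0.0124 in the authors' deposited table). WRKY29, placed beside WRKY22 in that cascade, was at 3.35 FPKM in pold2 and 3.06 FPKM in WT and was not called (q = 0.767 in that table). WRKY14 (AT1G30650) was called higher, at 6.37 FPKM in pold2 and 4.94 FPKM in WT (log2 ratio 0.37, q = 0.0404 in the authors' deposited table). The other 6 listed IIe genes, among them WRKY27 and the resistance gene WRKY16 (TTR1), were not called and lay between -0.17 and 0.38.

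Groups IIb and IId had no called gene in the authors' deposited table, although 2 of 7 and 1 of 6 had an unadjusted p under 0.05, as 24.0% of all genes did. All 7 listed IIb genes had ratios above 1, with log2 ratios from 0.08 to 0.47 and a median of 0.18. All 7 carry a WT H3K27me3 peak, and 61.6% of all genes with such a peak had ratios above 1. WRKY31 came nearest to a call, at 2.105 FPKM in pold2 and 1.51 FPKM in WT (q = 0.0659 in the authors' deposited table). WRKY6, a regulator of senescence and phosphate export, had a log2 ratio of 0.21, and WRKY42, which also controls phosphate genes, 0.08. Group IId, the calmodulin-binding subgroup, had the highest levels, with a median of 14.7 FPKM in pold2 and 15.4 FPKM in WT. Its log2 ratios lay between -0.25 for WRKY15 and 0.21 for WRKY17, a negative regulator of basal resistance along with WRKY11.

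The share of all genes called higher falls with level, so the members were also read by level. Among the 11 listed members whose mean over the genotypes was under 2 FPKM, 2 were called higher and 0 lower, against 10.3% and 1.93% of all genes at that level. From 2 to 5 FPKM 3 of 15 were called higher and WRKY22 lower, against 8.47% and 4.30%. From 5 to 10 FPKM 4 of 11 were called higher and 0 lower, against 6.54% and 4.32%. At 10 FPKM or more 2 of 13 were called higher (WRKY57 and WRKY70) and 0 lower, against 4.14% and 8.75%. The members' share called higher was above that of all genes in each of these 4 ranges, on few genes each. Under 2 FPKM the count is near the background. Both called members there were among the 8 with a WT H3K27me3 peak, and 17.9% of all such genes at that level were called higher.

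H3K27me3 was unevenly spread over the subgroups of the family. In WT, 24 of the 50 listed members (48.0%) carried a peak over at least 1 bp of their locus, against 15.3% of all genes. All 7 IIb genes carried 1, as did 7 of 9 in IIc, 5 of 8 in IIe, 3 of 6 in III, 1 of 3 in IIa (WRKY40), 1 of 11 in I (WRKY58) and none of the 6 in IId. The peaks covered the whole locus in 14 of the 24 and at least 50% of it in 22. By the authors' peak scores, the top members were WRKY14 (1871), WRKY35 (1765) and WRKY72 (1511), in a list with a median of 228. The weakest were WRKY51 (73.4), WRKY38 (84.5) and WRKY27 (95.8). With the better-scoring 50% of the peaks 19 members kept a peak.

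Members with an H3K27me3 peak were expressed at lower levels, as were genes at large with the mark. Their median was 3.23 FPKM in pold2 and 2.98 FPKM in WT, and that of the 26 members without a peak was 8.12 FPKM in pold2 and 7.10 FPKM in WT. Over all genes the medians were 4.33 FPKM in pold2 and 3.95 FPKM in WT with a peak, and 13.8 FPKM in pold2 and 13.9 FPKM in WT without. The share with a peak was above that of all genes at each level: 8 of 11 under 2 FPKM (38.3% of all genes), 9 of 15 from 2 to 5 FPKM (23.4%), 4 of 11 from 5 to 10 FPKM (14.7%) and 3 of 13 above that (8.09%).

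Called members were found both with and without the mark. Of the 24 members with a peak, 5 were called higher (WRKY14, WRKY48, WRKY54, WRKY57 and WRKY70) and 0 lower. Of the 26 without, 6 were called higher (WRKY18, WRKY25, WRKY26, WRKY45, WRKY46 and WRKY60) and WRKY22 lower. Of all genes with a peak, 16.6% had a called rise and 7.22% a called fall in the authors' deposited table, against 4.05% and 6.34% of those without. The count of marked members called higher is thus near that of marked genes at large, and that of unmarked members is above that of unmarked genes. The median log2 ratio was 0.26 in members with a peak and 0.12 in members without. Over all genes it was 0.10 with a peak and -0.02 without. The difference between members and other genes in this respect was not tested.

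**Figure D3:**
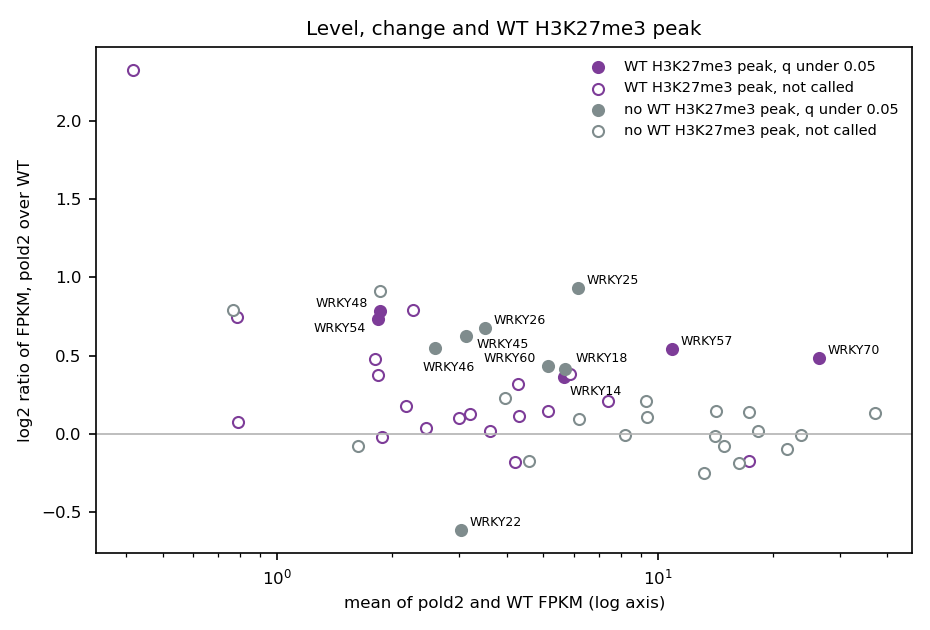
Log2 ratio of FPKM, pold2 over WT, against the mean of the pold2 and WT FPKM (log axis) for the 50 listed WRKY genes, in purple with and in grey without a WT H3K27me3 peak, filled and named where q is under 0.05. Below 10 FPKM filled points have both colours, above it the filled points WRKY57 and WRKY70 are purple, and the 10 grey members at 10 FPKM or more all lie open and near 0.

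Read by level and mark together, the calls were distributed as follows. Among the 13 members that averaged 10 FPKM or more, the 2 called higher were among the 3 with a peak, where 15.5% of all such genes were called higher. The third was WRKY65, at 16.3 FPKM in pold2 and 18.4 FPKM in WT. None of the 10 without a peak at that level was called in the authors' deposited table, and 1 of them had an unadjusted p under 0.05. Of all genes at that level without a peak 3.13% were called higher, so a count of 0 in 10 is near the background. From 2 to 5 FPKM none of the 9 marked members was called in the authors' deposited table, and 2 had an unadjusted p under 0.05, where 16.9% of all such genes were called higher. Of the 6 unmarked members at that level 3 were called higher and WRKY22 lower, against 5.88% and 3.39% of all such genes. From 5 to 10 FPKM 1 of 4 marked members was called higher, against 15.7% of all such genes. Of the 7 unmarked members there 3 were called higher, against 4.97%. Under 2 FPKM 2 of 8 marked members were called higher, against 17.9%. Of the 3 unmarked members there 0 were called, against 5.61% called higher, and 2 had an unadjusted p under 0.05. These counts are small and their differences were not tested.

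H3K4me3 was found over the locus or within 500 bp of it in 37 of the 50 listed members (74.0%), against 86.4% of all genes. All 3 IIa and all 6 IId genes carried it, and 2 of the 7 IIb genes did. By these rules both marks were present at 13 members (26.0%), against 7.65% of all genes. At WRKY51, 1 of the 13, the H3K4me3 peak lay within 500 bp but did not overlap the locus. Of these 13, 4 were called higher (WRKY48, WRKY54, WRKY57 and WRKY70), against 14.8% of all genes with both. Of the 11 members with H3K27me3 and no H3K4me3, 1 was called higher (WRKY14), against 18.4% of such genes at large. The difference between these counts was not tested. At WRKY70, an H3K27me3 peak (score 557) and an H3K4me3 peak (score 2470) each covered its whole locus. Whether both marks lie on the same chromatin or in different cells of the seedling was not tested. No listed member lay under an H3K9me2 peak, against 0.680% of all genes. WRKY44 and WRKY50 carried none of the 3 marks.

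**Figure D4:**
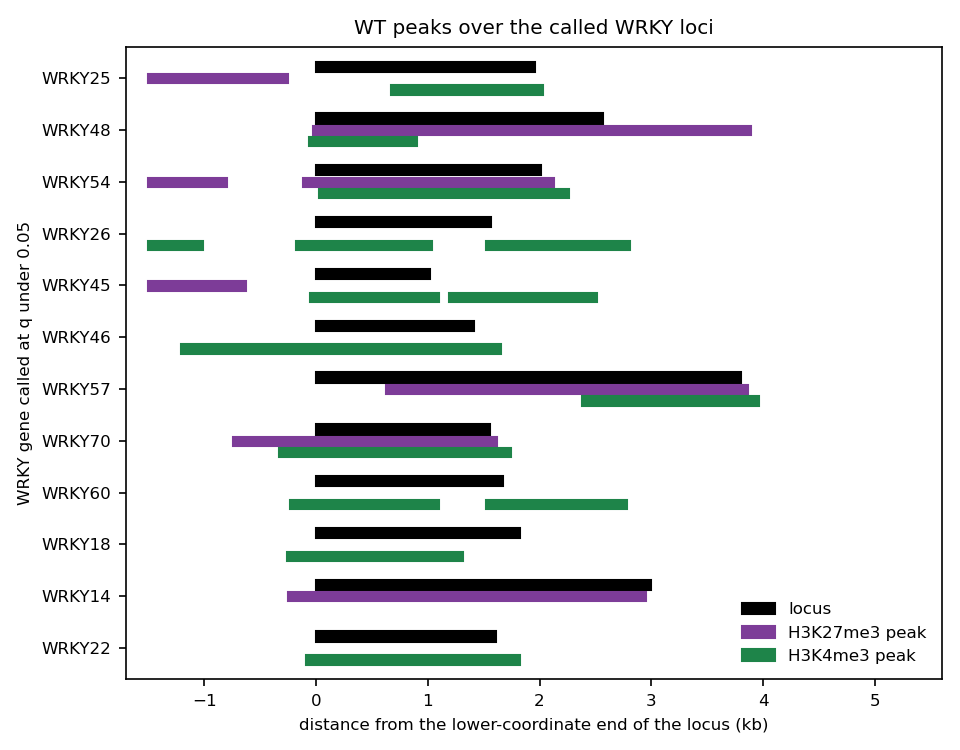
WT peaks of H3K27me3 (purple) and H3K4me3 (green) around the 12 called WRKY loci (black), ordered by fold change with the fall of WRKY22 last, in kb from the lower-coordinate end of each locus and drawn to 1.5 kb beyond it. WRKY14, WRKY48, WRKY54, WRKY57 and WRKY70 lie under H3K27me3, and WRKY25 and WRKY45 have such a peak beside the locus.

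Near misses of the overlap rule up to 1.5 kb from a locus were looked for at the 12 called members only. WRKY25 had an H3K27me3 peak ending 254 bp from its locus and WRKY45 had 1 ending 625 bp away, on the lower-coordinate side. The files give no strand, so these may lie before or behind the gene. Counting peaks within 500 bp would put WRKY25 among the marked members, which makes 6 of 25 marked members called higher. The share of all genes called higher under that wider rule is not given here, so this count has no matching background.

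No gene of the nearest listed loci beside a called member was itself called. Genes without a row were passed over, so these are not always the adjacent genes. The nearest listed loci on both sides of the 12 called members hold 28 genes, and none (0 of 28) was called in the authors' deposited table, against 12.4% of all genes. An unadjusted p under 0.05 was found for 5 of these 28 neighbours, against 24.0% of all genes. Of the 28 genes, 10 lay within 1 kb of the member. One of them, the ribonucleoprotein gene U2B'' 203 bp beyond WRKY25, was at 32.2 FPKM in pold2 and 35.2 FPKM in WT (q = 0.540 in the authors' deposited table).

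Genes that act around the family were read from 8 lists with 57 listed genes, of which 14 were called higher and 2 lower, against 5.97% and 6.47% of all genes. These shares are the background for each list below. Of the 14, FT and AP1 reached the table's minimum of 0.501 FPKM only in pold2, which fixed their direction. Upstream, 2 of 14 receptors and MAP kinases were called higher and 0 lower, with a median log2 ratio of 0.12. FLS2, the flagellin receptor, was at 7.92 FPKM in pold2 and 6.17 FPKM in WT (q = 0.0143 in the authors' deposited table). MKK4, a kinase that activates MPK3 and MPK6, was at 9.01 FPKM in pold2 and 7.10 FPKM in WT (q = 0.0480 in the authors' deposited table). The 2 kinases themselves were not called, with log2 ratios of -0.13 for MPK3 and -0.06 for MPK6. Of 9 listed VQ proteins, which bind WRKY domains, 0 were called in the authors' deposited table and 1 had an unadjusted p under 0.05, with a median of 0.02. The 2 most expressed were VQ4, at 40.5 FPKM in pold2 and 41.7 FPKM in WT, and SIB2, a partner of WRKY33, at 18.5 FPKM in pold2 and 16.7 FPKM in WT.

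By the authors' deposited table, 7 of 16 listed salicylate genes had a called rise and 0 a called fall, with a median log2 ratio of 0.33. PBS3, which acts after ICS1 in salicylate synthesis, was at 3.03 FPKM in pold2 and 1.43 FPKM in WT, and NIMIN1, which binds the receptor NPR1, at 4.27 FPKM in pold2 and 2.03 FPKM in WT. SARD1, a transcription factor gene of salicylate synthesis, was at 2.43 FPKM in pold2 and 1.298 FPKM in WT, and SAG101, a partner of EDS1, at 11.2 FPKM in pold2 and 7.65 FPKM in WT. The others called were ALD1, PR1 and CBP60g, at 1.45-fold, 1.45-fold and 1.37-fold. ICS1, the isochorismate synthase of salicylate production and a target of WRKY28, was at 12.7 FPKM in both genotypes and was not called (q = 0.989 in the authors' deposited table). Several WRKY genes of group III and this list are known to answer to salicylate, so the lists are not independent.

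The lists of WRKY targets were short, and the share of genes called differed between them. Of 6 listed defence targets, 3 had a called rise and 0 a called fall in the authors' deposited table. CYP71A12, a cytochrome P450 of indole metabolism, was at 5.08 FPKM in pold2 and 1.78 FPKM in WT, with reads that its near copy CYP71A13 could share. The camalexin gene PAD3, a target of WRKY33, was at 5.25 FPKM in pold2 and 3.51 FPKM in WT, and the transporter gene PEN3 at 157 FPKM in pold2 and 116 FPKM in WT. The other 3 listed defence targets, ACS6, BCS1 and PROPEP3, were not called, with log2 ratios of -0.02, 0.25 and -0.62. WRKY33 itself was not called either. Of 5 listed senescence genes, SEN1 was called lower, at 84.2 FPKM in pold2 and 119.6 FPKM in WT, and 0 were called higher. Of 3 phosphate transport genes, PHT1;4 was called lower, at 13.2 FPKM in pold2 and 16.9 FPKM in WT, while PHT1;1, a target of WRKY45, was at 39.6 FPKM in pold2 and 39.7 FPKM in WT. The flowering targets FT and AP1 were both called higher, at 1.58 FPKM in pold2 and 0.495 FPKM in WT for FT, and at 0.813 FPKM in pold2 for AP1, which was listed at 0 in WT. Both reached the table's minimum of 0.501 FPKM only in pold2, which fixed their direction. WRKY12 and WRKY75, known to act on flowering genes, had log2 ratios of 0.04 and 0.11. Of 2 listed seed coat and trichome genes tied to WRKY44, 0 were called in that table, and 0 at an unadjusted p under 0.05. TTG1 was at 20.1 FPKM in pold2 and 21.8 FPKM in WT, and GL2 at 1.72 FPKM in pold2 and 1.74 FPKM in WT.

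**Figure D5:**
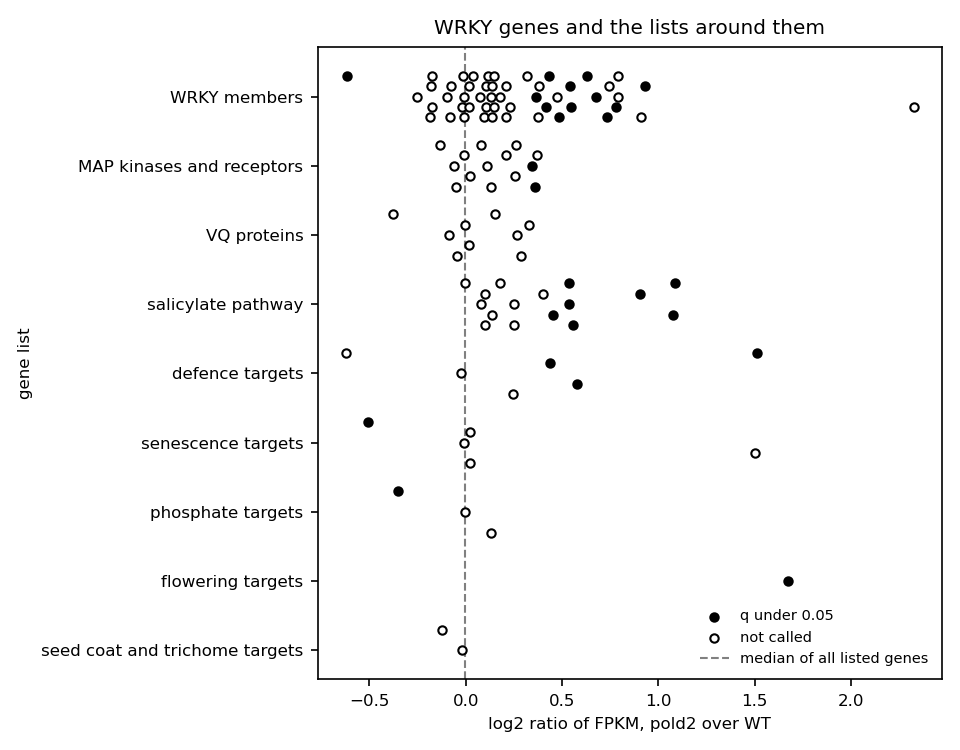
Log2 ratio of FPKM, pold2 over WT, of the 50 listed WRKY genes and of the 8 lists of genes around them, filled where q is under 0.05, with the median of all genes (-0.01) as a dashed line. Filled points lie to the right in the WRKY, salicylate and defence rows, except WRKY22 at -0.62, and AP1 has no point because it is listed at 0 in WT.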

How the data were processed

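RNA values were the FPKM that the authors deposited, with 1 pooled column for pold2 and 1 for WT per the file headers, each from 3 libraries per the labels. The authors' deposited log2 ratio (pold2 over WT), p-value and q-value were used as they stand. Their q equals the Benjamini-Hochberg adjustment of p over all 19858 genes with differences up to 5.28e-07. At the lowest p, 5e-05, lie 965 genes, 3 of them members, which q cannot rank. Peak positions and scores are the authors' deposited values; the peaks carry MACS-style names in the lists. Per the submitters' processing notes the tools include TopHat2 2.1.1 and Cuffdiff 2.1.1, and the build TAIR10, with no role given. The sources used here do not give the peak caller's settings. The other 9 libraries of the 18 (bisulfite, pold2 ChIP, H3 and input) were not analysed here.

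Loci are those of the table, with 1 added to the start to count from 1, and 5 members share a locus with another gene. A gene counted as marked if any peak overlapped its locus by 1 bp or more; for H3K4me3 the locus was widened by 500 bp both ways. Symbols came from a reference table of TAIR10.1, which matched all 56 identifiers, and subgroups were assigned by hand from general knowledge of the family, with WRKY45, whose place is disputed, put in IIc. With pooled values no test across libraries was possible, so the authors' q was used, and lists were described by counts and medians. Members, lists and subgroups were chosen with earlier results of these data known. Named in full were POLD2, every called member, the 3 most expressed and the 3 most changed uncalled members (mean of at least 1 FPKM), and up to 4 called genes per list or its 2 most expressed; other members are given by value for their role. Overlap and adjustment code was tested on simulated data (Python 3.11.15, pandas 2.3.3). Planned comparisons of promoter letters and protein identity were not run, since no sequence was used here.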

Additional observations from a re-analysis of the deposited data

How the results depend on the processing

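Members called higher, 11 as reported, numbered 5 at a q under 0.01, 5 with a minimum of 1.5-fold and 6 where the genotypes averaged 5 FPKM or more. Members called lower, 1 as reported, numbered 0 at a q under 0.01 and 0 at that level, by the authors' q. Leaving out the 5 members that share a locus changed neither count. The group III median of 0.64 became 0.36 with a pseudocount of 1 and 0.52 at a mean of at least 1 FPKM. At a mean of at least 5 FPKM only WRKY70 was left in group III, and the 0.48 there is its own ratio. The medians of the 50 and of the other subgroups stayed within 0.1 in log2 under each of these settings and median-ratio scaling, but the IIc median of 0.54 became 0.33 with WRKY45 placed in group I. At a mean of at least 5 FPKM group IIa kept only WRKY18 and WRKY60. Group IIc kept only WRKY57, its median gene as reported, so that setting says nothing on the stability of the IIc median. A pseudocount added to both pooled values cannot change a direction, so the kept direction of the 12 called members is no test of it. Median-ratio scaling moved WRKY14, the called member nearest 0, only from 0.365 to 0.372, so that setting could not turn a called member either. With the better-scoring 50% of peaks, members with H3K4me3 numbered 21 in place of 37. Genes of the 8 lists called higher, 14 as reported, numbered 6, 6 and 5 at a q under 0.01, 1.5-fold and a mean of at least 5 FPKM; those called lower, 2 as reported, numbered 1 at a q under 0.01 and 0 at 1.5-fold. Fewer genes can pass each of these stricter settings by construction. The settings on a mean of at least 1 FPKM, on shared loci, on the place of WRKY45 and on 500 bp beside a locus were chosen after seeing the data. No paired analysis was possible because the table holds 1 pooled value per genotype, and replicates could not be left out for the same reason. Groups from protein letters and the shorter promoter motif were not run. Depth is unknown, so what it limits could not be given.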

Other observations

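A further 6 genes of the family, WRKY9, WRKY24, WRKY43, WRKY56, WRKY74 and RRS1 (WRKY52), have rows in the table but are not on the list of members. Their subgroups were not assigned here, so no subgroup count or median above includes them. None of these 6 was called in the authors' deposited table, where their lowest q was 0.140 for RRS1, and their log2 ratios lay between 0.06 for WRKY9 and 0.44 for WRKY43. WRKY9 was at 7.62 FPKM in pold2 and 7.32 FPKM in WT. RRS1, a resistance protein with a WRKY domain, was at 5.66 FPKM in pold2 and 4.78 FPKM in WT. WRKY43 was at 2.04 FPKM in pold2 and 1.498 FPKM in WT. Of the 6, WRKY9, WRKY24 and WRKY56 carried a WT H3K27me3 peak.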
